A study of Homo sapiens with 8 samples.

Results

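The comparison described here set HCT-116 cells that had received both drugs in sequence against cells that had received vehicle at both steps. HCT-116 is an established human colorectal cancer cell line. Its members were the 2 libraries labelled 5FU_12hr_3MB_4hr and the 2 labelled DMSO_12hr_DMSO_4hr, 4 of the 8 libraries in the series, compared across every gene that was counted deeply enough. In the first group the cells were kept for 12 h in 40 µM 5-fluorouracil (5-FU), rinsed in phosphate-buffered saline, and kept for 4 h in 2.5 µM 3-MB-PP1. In the vehicle group DMSO, the solvent of both drugs, took their place at each step. The other 4 libraries, used here for reference, came from 5-FU for 12 h then DMSO for 4 h (5-FU alone) and from DMSO for 12 h then 3-MB-PP1 for 4 h (3-MB-PP1 alone), with 2 libraries each. Total RNA was depleted of rRNA and sequenced from a single end. The series title concerns Cdk7, and its design text names inhibitors of CDK7 and p53. The kinase allele of the cells, and whether replicates were separate cultures, are not in the labels, so p-values below measure the spread between these libraries, which may be technical.

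5-FU is a pyrimidine analogue whose products block thymidylate synthase and enter RNA and DNA. The resulting stress stabilises p53, a transcription factor that turns on genes of cell cycle arrest, apoptosis, DNA repair and metabolism, among them its own inhibitor MDM2. Through p21 (CDKN1A) it also leads to repression of E2F and DREAM target genes, which drive DNA replication and mitosis. 3-MB-PP1 is a bulky purine analogue that blocks kinases whose ATP pocket has been enlarged to accept it. CDK7, with cyclin H and MAT1, forms the kinase module of the general transcription factor TFIIH and phosphorylates RNA polymerase II early in transcription. Cells that receive one drug after the other therefore meet a p53-activating stress first and a kinase inhibitor afterwards.

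The 4 libraries held between 12606929 and 13444356 gene counts, and all 8 between 10580105 and 50501212. Of 23885 genes, 15723 were counted deeply enough to be tested. In the edgeR quasi-likelihood test with Benjamini-Hochberg adjustment, 7884 genes, 50.1% of those tested, passed an adjusted p of 0.05 (called) between both drugs and vehicle. Of these, 3759 were higher (23.9%) and 4125 lower (26.2%) after both drugs, 728 (4.63%) and 802 (5.1%) of them by over 2-fold, and 184 (1.17%) and 135 (0.859%) by over 4-fold. Both drugs differed from 5-FU alone in 32.9% of genes and from 3-MB-PP1 alone in 39.5%. The median log2 fold change of all genes was -0.003 and the median size of change, whatever its sign, 0.29. Scaling the libraries to ERCC spike-ins, synthetic RNAs added in fixed amounts, left 427 calls, 204 higher and 223 lower, all of them over 2-fold. Of the genes picked to be named, 127 lost their call under it. This loss is mostly not repeated gene by gene below, where other lost calls are given. The spike-ins took 4.16% and 2.52% of the authors' totals in the vehicle libraries and 3.61% and 2.88% after both drugs, and this scaling moved the median of all genes to 0.001. HCT-116 keratins were abundant, with KRT8 at 1228 and 1300 CPM (counts scaled to library size) in the vehicle libraries, whereas 12 of 20 markers of fibroblasts, blood, endothelium, neurons and liver were too low to test and COL1A2, DCN and CDH5 had no count in any library. The colon markers CDX1, VIL1 and GPA33 were also too low to test.

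**Figure D1:**
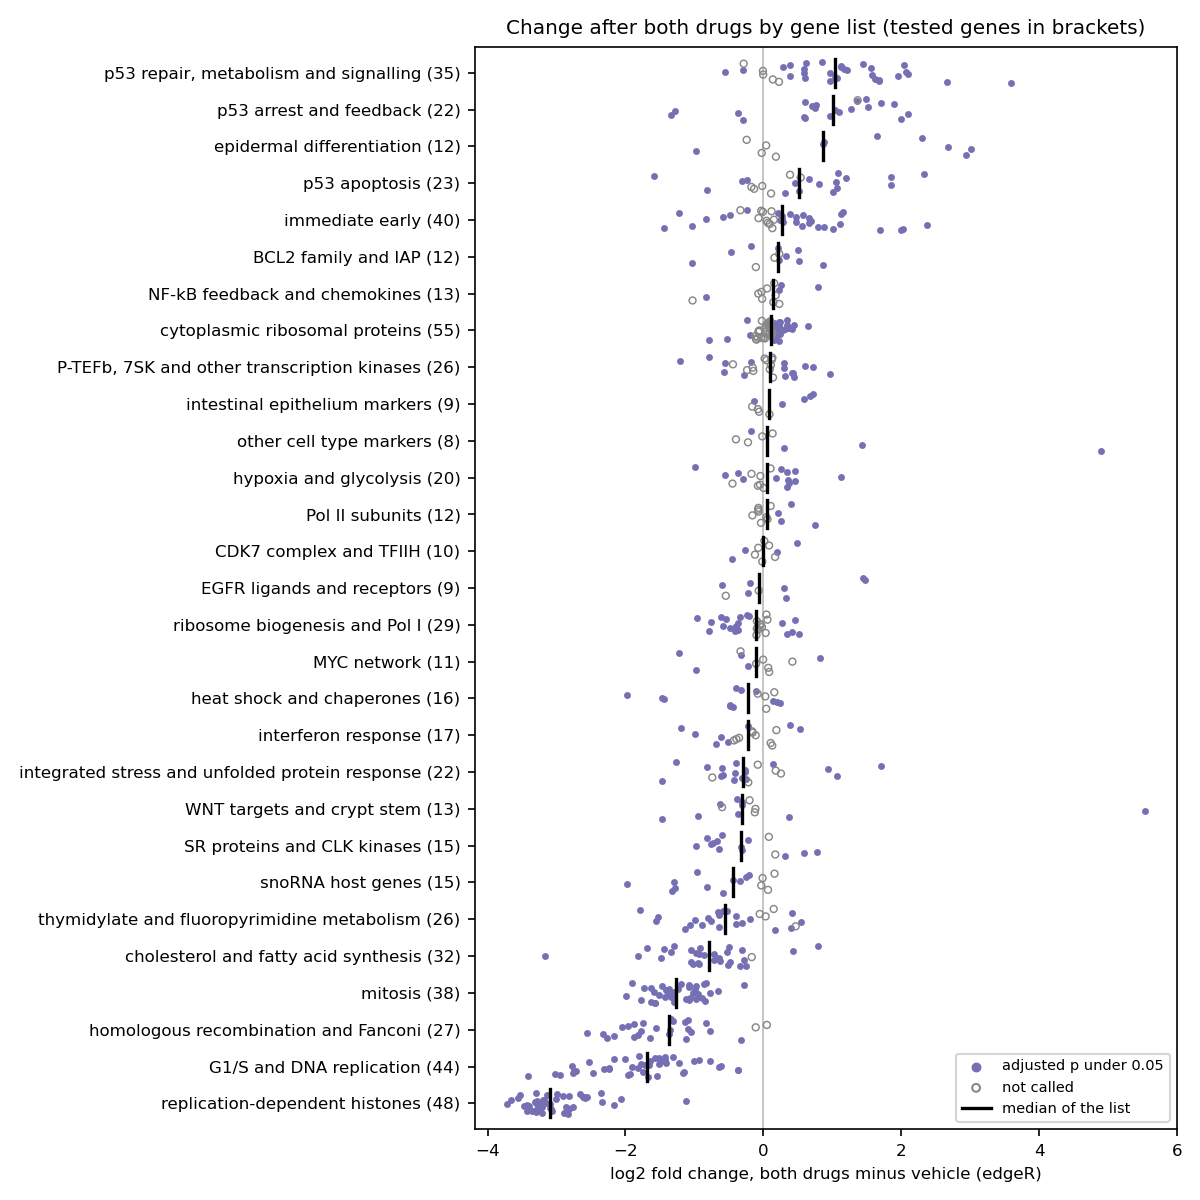
Log2 fold change between both drugs and vehicle for each tested member of 29 gene lists, ordered by median. Filled points were called, open points were not, and black bars are medians; the p53 lists lie to the right and the histone, G1/S, recombination and mitotic lists to the left.

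The p53 targets were mostly higher after both drugs. CDKN1A, the cell cycle inhibitor p21, rose 4.27-fold, GDF15, a secreted stress cytokine, 4.3-fold, and TP53I3, a quinone reductase, 5.05-fold. The death receptor FAS and BTG2, an anti-proliferative co-regulator of mRNA decay, rose 3.6-fold and 4.01-fold, the counts of FAS being uncertain because ACTA2 and FAS-AS1 overlap it on the opposite strand. MDM2, the ubiquitin ligase that degrades p53, rose 2.06-fold.

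CDKN1A measured 192 and 198 CPM in the vehicle libraries and 848 and 817 CPM after both drugs, which is 2.10 on the log2 scale (SE 0.05, adjusted p = 7.1e-21). The groups lay far apart, and the libraries of 5-FU alone, at 1584 and 1491 CPM, stood above both. MDM2 was at 449 and 426 CPM in vehicle, 889.5 and 910.4 CPM after both drugs and 2059 and 2211 CPM after 5-FU alone. Its net change was 1.04 (SE 0.05, adjusted p = 8.5e-16), and again the level after both drugs lay between vehicle and 5-FU alone without overlap. GDF15 went from 32.2 and 31.2 CPM to 141 and 132 CPM (2.10, SE 0.08), with 227 and 203 CPM after 5-FU alone. In hg19 coordinates these transcripts span chr6:36646487-36655116 (CDKN1A), chr12:69201971-69239320 (MDM2) and chr19:18496968-18499986 (GDF15), all on the plus strand, and the microRNA gene MIR3189 overlaps GDF15 on the same strand.

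Not every p53 target stood below its level after 5-FU alone. TNFRSF10D, a decoy receptor for the death ligand TRAIL, was at 93.1 and 94.7 CPM in vehicle, 206 and 212 CPM after 5-FU alone, 205 and 205 CPM after 3-MB-PP1 alone, and 342 and 334 CPM after both. It was higher than after either drug alone, by 0.69 and 0.72 on the log2 scale (adjusted p = 1.3e-10 and 7.1e-12). SESN1, a stress-induced inhibitor of mTORC1 signalling, was at 34.6 and 29.3 CPM in vehicle, 80.7 and 83.9 CPM after 5-FU alone and 121 and 117 CPM after both, and its net rise was 1.89 (SE 0.08). Its relative SESN2 (1.71), the alkaline ceramidase ACER2 (2.66) and PMAIP1, which encodes the pro-apoptotic protein NOXA (1.05), were also called higher against each drug alone. BBC3, which encodes the pro-apoptotic protein PUMA, was at 11.4 and 9.60 CPM in vehicle, 40.3 and 37.3 CPM after 5-FU alone, 5.71 and 3.95 CPM after 3-MB-PP1 alone and 14.9 and 15.1 CPM after both. Its net rise of 0.51 (adjusted p = 0.0033) was not called without vehicle replicate 2, and its counts are uncertain because MIR3191 and MIR3190 overlap it.

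**Figure D2:**
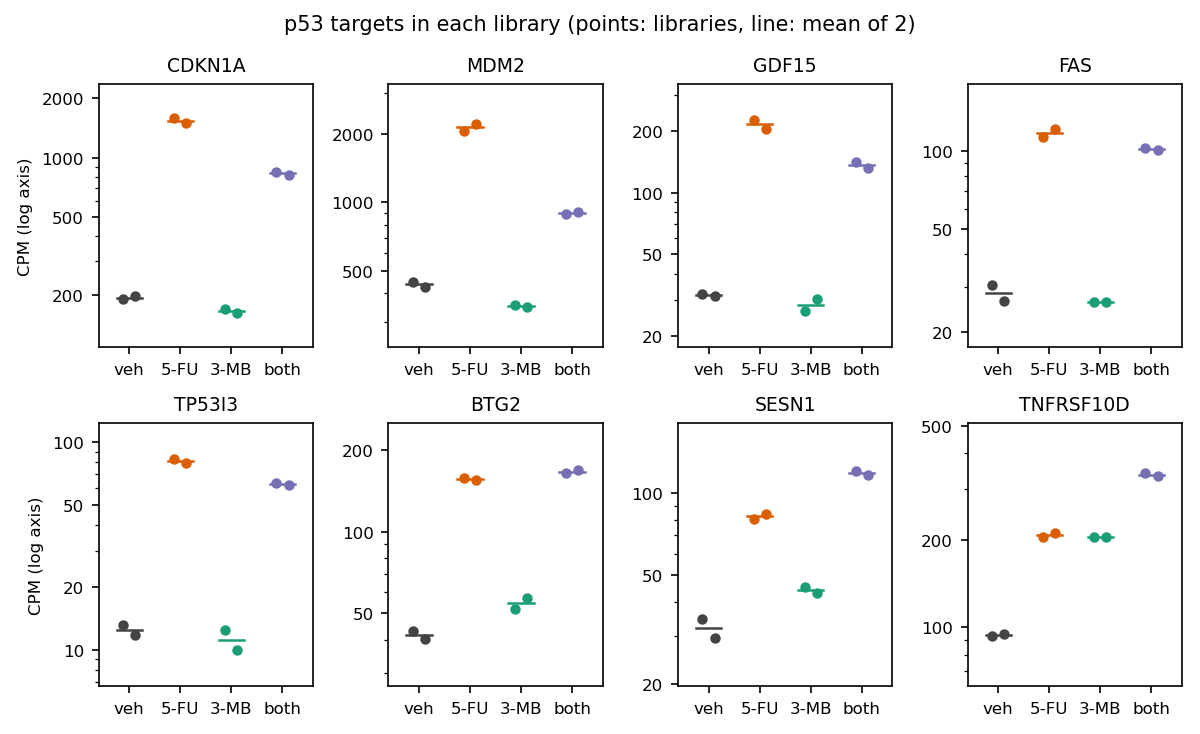
CPM on a log axis of 8 p53 targets in every library; points are the 2 libraries of a group and lines their mean. In CDKN1A, MDM2 and GDF15 the libraries of both drugs lie between vehicle and 5-FU alone, while in SESN1 and TNFRSF10D they lie above all 6 others.

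By list, 17 of 22 tested p53 targets of arrest and feedback rose and 4 fell. Their median log2 fold change was 1.00 against -0.003 over all genes. Counts in this and later lists are to be read beside the 23.9% of all genes called higher and the 26.2% called lower. Of 23 apoptotic targets 13 rose and 4 fell (median 0.51), and of 35 targets in repair, metabolism and signalling 28 rose and 2 fell (median 1.04). The 3 lists had medians of 1.31, 0.71 and 1.03 after 5-FU alone and -0.02, -0.11 and 0.04 after 3-MB-PP1 alone, all against the same vehicle libraries. Those that fell in the arrest list were BTG1 (-0.29, not called in DESeq2 and in 11 other alternatives), the phosphatase CDC25C (-1.34), the repressor E2F7 (-0.36) and the mitotic protein GTSE1 (-1.28), and in the apoptosis list TNFRSF19 (-1.59), the BH3 protein BIM, BCL2L11 (-0.81), SIVA1 (-0.32) and STEAP3 (-0.23, not called in DESeq2, without either vehicle library or without replicate 2 of both drugs). KITLG, a growth factor (-0.56), and the receptor NOTCH1 (-0.30) fell in the last list. Under spike-in scaling 4, 3 and 8 members of the 3 lists were called higher and none lower, at medians of 1.01, 0.55 and 1.06. CDKN1A, GDF15, FAS, TP53I3, BTG2, SESN1, SESN2, ACER2 and TNFRSF10D kept their call there, and MDM2 did not (1.05 there, and 1.00 to 1.08 over all alternatives).

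Every tested member of the lists of DNA replication, of mitosis and of replication-dependent histones was lower after both drugs. All 44 G1/S and replication genes fell, with a median log2 change of -1.69. All 38 mitotic genes did so (median -1.27), and so did all 48 tested histone genes of 59 listed (median -3.10). Of 27 genes of homologous recombination and the Fanconi pathway, 25 fell (median -1.37). In bulk RNA, fewer cells in a phase of the cycle and less RNA per cell cannot be told apart. With spike-in scaling 25, 6, 47 and 12 members of these lists were called lower, at medians of -1.69, -1.26, -3.11 and -1.37.

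Among the replication genes CCNE2, which encodes cyclin E2, fell most (-3.42), followed by the licensing factor CDC6 (-3.02), the phosphatase CDC25A (-2.95), MCM10 (-2.77) and the transcription factor E2F1 (-2.75). CDC6 measured 202 and 209 CPM in vehicle and 23.3 and 27.3 CPM after both drugs, with no overlap (adjusted p = 1.2e-20). Its libraries after 5-FU alone, at 29.7 and 28.1 CPM, did not differ from those of both drugs at the threshold (-0.19, adjusted p = 0.091). CDC25A was at 90.0 and 97.4 CPM in vehicle, 21.2 and 22.0 CPM after 5-FU alone, 55.9 and 58.8 CPM after 3-MB-PP1 alone and 13.8 and 10.6 CPM after both. It was thus lower than after either drug alone, by -0.83 and -2.23 (adjusted p = 3.3e-06 and 8.4e-16). The zinc finger gene ZNF367 fell most of all genes ranked, from 62.5 and 63.0 CPM to 4.04 and 3.71 CPM (-4.02, SE 0.11). FAM111B, a serine protease, changed by -3.36. The counts of CCNE2 are uncertain, since INTS8 overlaps it on the opposite strand.

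Mitotic genes fell less. CENPA, the histone H3 variant of centromeres, went from 32.8 and 31.6 CPM to 7.99 and 8.26 CPM (-1.98, SE 0.12), the checkpoint kinases TTK and BUB1B changed by -1.90 and -1.77, and the condensin subunit NCAPH by -1.72. Cyclin B1 (CCNB1) stood at 397 and 386 CPM in vehicle and 181 and 180.4 CPM after both drugs (-1.12). In recombination the exonuclease EXO1 (-2.56), the checkpoint adaptor CLSPN (-2.33), the helicase BLM (-2.27) and BRCA2 (-2.17) fell most. The mitotic and replication medians after 5-FU alone were -1.46 and -1.71, and after 3-MB-PP1 alone -0.21 and -0.25.

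Histone genes stood lower than after 5-FU alone. Replication-dependent histone mRNAs are made in S phase, lack a poly(A) tail and end in a stem-loop, so they are captured by total RNA libraries. HIST1H2BM was at 99.7 and 119 CPM in vehicle and 7.04 and 9.49 CPM after both drugs (-3.72, SE 0.12, adjusted p = 1.7e-18), against 12.2 and 11.3 CPM after 5-FU alone. HIST1H3J (-3.66), HIST1H4H (-3.56) and HIST1H2BJ (-3.47) changed alike. The summed level of all 59 listed genes was 8472 and 9301 CPM in vehicle and 1667 and 1510 CPM after 5-FU alone. It was 5338 and 5061 CPM after 3-MB-PP1 alone and 994 and 1274 CPM after both drugs. Against 5-FU alone, 36 of the 48 tested genes were called lower and 0 higher, where 17.2% of all genes were called lower. Against 3-MB-PP1 alone all 48 were called lower, where 19.8% of all genes were. Near-identical histone copies share reads, and how the authors' counting divided them is not given in the sources used here.

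**Figure D3:**
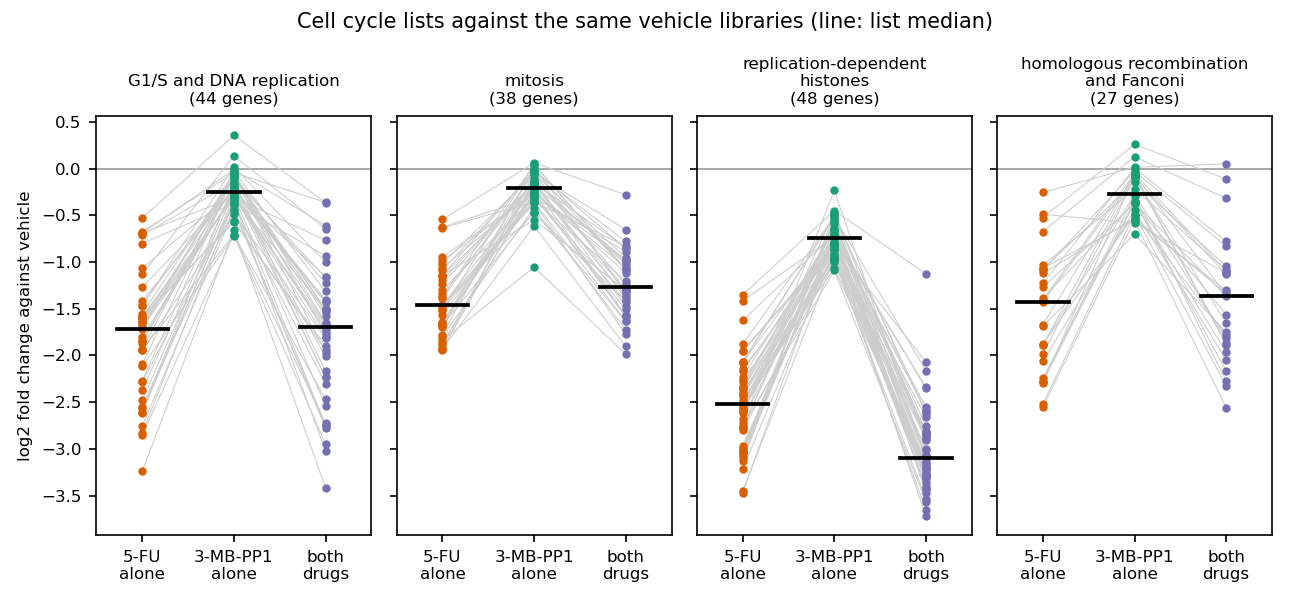
Log2 fold change against the same 2 vehicle libraries after 5-FU alone, 3-MB-PP1 alone and both drugs, for the tested members of 4 cell cycle lists; grey lines join a gene and black bars are medians. Histone genes reach a median of -3.10 after both drugs, below the -2.53 after 5-FU alone.

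Promoter windows of RefSeq (GRCh38.p14, from 250 bases before to 50 after a gene's start) were searched for short motifs on both strands, as a description of what the genes that moved together share in sequence. Of the 15723 genes tested, 11624 were matched to a window. The E2F-type motif (TTCCCGC, or else TTGGCGC, or else TTCGCGC, or else TTGCCGC) lay in 30 of 38 matched replication promoters (78.9%), against 19.9% of all tested and 13.1% of all promoters in the table. The CHR motif TTTGAA, read by DREAM and MMB complexes, lay in 22 of 32 mitotic promoters (68.8%, against 10.2% and 15.4%). CCAAT was found in 37 of 44 histone promoters (84.1%, against 36.7% and 35.7%) and TATAAA in 29 of them (65.9%, against 6.44% and 12.0%). The E2F-type motif lay also in 54.2% of recombination, 38.6% of histone and 37.5% of mitotic promoters. In the p53 arrest and apoptosis lists it lay in 29.4% and 16.7%. CHR lay also in 38.6% of histone promoters, and in 5.26% of replication promoters. CCAAT was not particular to histones, lying also in 71.9% of mitotic and 57.9% of replication promoters. CCAAT lay in 64.7% of the p53 arrest list, which mostly rose, and in 27.8% of the p53 apoptosis list. Among 599 matched genes that fell over 2-fold, 35.6% held the E2F-type motif and 20.9% the CHR motif, and among 505 that rose over 2-fold, 13.3% and 13.1% did.

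Shown for these lists and for the chaperones described further on are the 200 bases before the start of a member. It was the member with the largest fall that held the motif in these bases, among the members considered. Those on the chromosome of CCNE2, and so CCNE2 with the largest fall of its list, were left out of the choice. Capitals mark the matches named in the next sentences, and other matches were left in lower case. CDC25A, at chr3:48188418-48188617 on the minus strand, holds TTGGCGC 43 bases before its start, overlapped by the same motif on the other strand. CENPA, at chr2:26785856-26786055 on the plus strand, holds TTTGAA 18 bases and an inverted CCAAT 130 bases before its start. HIST1H2BM (H2BC14 in RefSeq), at chr6:27814822-27815021 on the plus strand, holds 4 CCAAT motifs, 2 of them inverted, in these 200 bases. HSPA8, at chr11:123062137-123062336 on the minus strand, holds the heat shock element GAANNTTC 50 bases before its start.
CDC25A: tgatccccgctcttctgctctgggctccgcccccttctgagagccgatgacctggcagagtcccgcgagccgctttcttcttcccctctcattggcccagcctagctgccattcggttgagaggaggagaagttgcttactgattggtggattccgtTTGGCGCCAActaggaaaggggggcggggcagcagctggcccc
CENPA: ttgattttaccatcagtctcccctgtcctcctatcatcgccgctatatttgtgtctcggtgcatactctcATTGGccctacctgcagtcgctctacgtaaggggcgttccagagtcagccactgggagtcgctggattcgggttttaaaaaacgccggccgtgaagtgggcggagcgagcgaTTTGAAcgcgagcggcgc
HIST1H2BM: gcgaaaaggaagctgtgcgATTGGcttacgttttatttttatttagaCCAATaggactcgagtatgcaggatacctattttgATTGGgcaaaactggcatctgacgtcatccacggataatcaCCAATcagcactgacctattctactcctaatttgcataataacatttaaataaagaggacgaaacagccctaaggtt
HSPA8: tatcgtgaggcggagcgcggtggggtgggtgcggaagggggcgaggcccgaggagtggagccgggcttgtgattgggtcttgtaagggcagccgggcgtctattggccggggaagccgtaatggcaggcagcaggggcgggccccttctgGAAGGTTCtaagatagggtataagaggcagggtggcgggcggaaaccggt

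Genes that use or remove pyrimidines were mostly lower. Of 26 tested genes of thymidylate and fluoropyrimidine metabolism, 18 fell and 4 rose (median -0.56). UNG, the glycosylase that removes uracil from DNA, fell from 128 and 129 CPM to 38.2 and 36.2 CPM (-1.79), the ribonucleotide reductase subunit RRM2 changed by -1.56, deoxycytidine kinase (DCK) by -1.14, the dUTPase DUT by -1.06, and SLC29A2, a nucleoside transporter, by -1.53. TYMS, thymidylate synthase and the direct target of 5-FU, was among the 4 that rose, at 118 and 126 CPM in vehicle and 160 and 165 CPM after both drugs (0.41, SE 0.10). Its call ended in DESeq2, the gene ENOSF1 overlaps it on the opposite strand, and its 2 libraries of 3-MB-PP1 alone differed, at 118 and 177 CPM.

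Transcripts of the CDK7 complex moved little. CDK7 measured 79.7 and 83.0 CPM in vehicle, 57.7 and 61.6 CPM after both drugs, 59.9 and 61.8 CPM after 3-MB-PP1 alone and 81.7 and 88.3 CPM after 5-FU alone, a net fall of 0.45 on the log2 scale (SE 0.07, adjusted p = 5.2e-06). Both groups that had received 3-MB-PP1 lay below both that had not. Its partners CCNH (-0.01, 95% interval -0.20 to 0.17) and MNAT1 (0.02, -0.18 to 0.21) were not called. Among 10 genes of CDK7 and TFIIH, 2 rose, the TFIIH subunits GTF2H5 (0.49) and GTF2H1 (0.20), and 2 fell, CDK7 and GTF2H2 (-0.27). Over all genes 23.9% rose and 26.2% fell. The call of GTF2H1 ended without vehicle replicate 1 or without replicate 2 of both drugs.

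POLR2A, the catalytic subunit of RNA polymerase II, was at 170 and 147 CPM in vehicle and 282 and 247 CPM after both drugs (0.74, SE 0.07), and 4 of 12 polymerase II subunits rose with 0 falling. Of 26 genes of P-TEFb, 7SK and other transcription kinases, 9 rose and 6 fell, beside 23.9% and 26.2% of all genes. Cyclin K (CCNK), the partner of CDK12, rose (0.97), as did the elongation factor ELL (0.72). MEPCE, the enzyme that caps 7SK RNA, fell from 63.0 and 59.8 CPM to 27.2 and 26.1 CPM (-1.20, SE 0.08) and lay below each drug alone. CDK12 (-0.58), the 7SK protein LARP7 (-0.56) and the NELF subunit WHSC2 (-0.78) fell too, and HEXIM1, the P-TEFb inhibitor, was not called (0.11, 95% interval -0.06 to 0.28). CCDC85C overlaps CCNK on the opposite strand. Splicing factors of the SR family and their CLK kinases diverged in sign: 10 of 15 fell, led by SRSF2 (-0.98, overlapped by MFSD11), SRSF7 (-0.81) and SRSF3 (-0.76), and the 3 that rose were the kinases CLK4 (0.79), CLK3 (0.59) and CLK1 (0.31).

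Immediate early genes, which respond to growth factors and stress within minutes, split after both drugs. Of 40 tested, 23 rose and 7 fell, with a median of 0.28, against a median of 0.73 after 5-FU alone and 0.20 after 3-MB-PP1 alone. The zinc finger factor EGR2 (2.37), the matricellular protein CYR61 (2.02), BTG2 and the stress factor ATF3 (1.70) rose most, and MYC, IER3, JUND, KLF4, ZFP36L1 and the phosphatases DUSP2 and DUSP6 fell, KLF4 (-0.49) not without vehicle replicate 2. The interaction, which is the log2 change after both drugs minus the sum of the changes after each drug alone, was called below 0 for 22 of the 40 and above 0 for 0, where 2.0% and 2.11% of all genes were called, 4.1% in all. With spike-in scaling, under which the median interaction of all genes was -0.31 and the medians against 5-FU and 3-MB-PP1 alone were -0.12 and -0.19, edgeR called 0 interactions, with 75 at an unadjusted p under 0.05, while DESeq2 called 379 and limma-voom 736 without it. JUN, an AP-1 subunit, was at 8.33 and 9.22 CPM in vehicle, 30.5 and 28.8 CPM after 5-FU alone, 9.59 and 9.12 CPM after 3-MB-PP1 alone and 14.01 and 13.81 CPM after both. Its net rise of 0.66 came with an interaction of -1.20 (adjusted p = 3.7e-05). FOS, its partner, rose by 0.66, from 5.37 and 6.25 CPM to 8.31 and 10.1 CPM. The calls of the net changes of FOS, JUN, MYC, IER3 and DUSP6 ended with spike-in scaling and in no other alternative.

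MYC, the growth-promoting transcription factor, was at 320.3 and 370.1 CPM in vehicle, 516 and 499 CPM after 5-FU alone, 195 and 196 CPM after 3-MB-PP1 alone and 146 and 149 CPM after both drugs. The net fall was -1.23 (SE 0.06, adjusted p = 3.6e-15), the level lay below each drug alone (-1.78 against 5-FU alone and -0.40 against 3-MB-PP1 alone), and the interaction was -0.96 (adjusted p = 2.4e-08). DUSP6, a phosphatase of ERK made in response to ERK activity, differed in another way. Its libraries lay at 211 and 254 CPM in vehicle, 233 and 241 CPM after 5-FU alone, 274 and 255 CPM after 3-MB-PP1 alone, and 112 and 115 CPM after both. The net change of -1.04 (SE 0.07, adjusted p = 2.3e-12) stood beside 0.03 and 0.19 after each drug alone, and the interaction was -1.25 (adjusted p = 3.5e-09). IER3, a survival factor, went from 237 and 285 CPM to 148 and 146 CPM (-0.83) although it measured 502 and 506 CPM after 5-FU alone. In the MYC network 1 of 11 tested genes rose and 4 fell, where 23.9% of all genes rose and 26.2% fell. MGA, a MAX partner and repressor, fell (-0.98) and MXD4, a MYC antagonist, rose (0.83).

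Few feedback genes and chemokines of NF-kB were called against vehicle. Of 13 tested, 3 rose and 1 fell, with a median of 0.15, beside 0.57 after 5-FU alone and -0.47 after 3-MB-PP1 alone. Over all genes 23.9% rose and 26.2% fell against vehicle. RELB (0.79), TNFAIP2 (0.26) and the inhibitor NFKBIA (0.23) rose, TNFAIP2 not in DESeq2 nor without vehicle replicate 1 or replicate 2 of both drugs, IER3 fell, and IL8 (0.18), ICAM1 (-0.02) and CXCL1 (0.15) were not called. In 15 genes that host small nucleolar RNAs in their introns, 11 fell and 0 rose, with a median of -0.44 beside 0.14 after 5-FU alone and -0.61 after 3-MB-PP1 alone. SNHG12 went from 51.8 and 51.1 CPM to 12.8 and 13.3 CPM (-1.98, SE 0.09), close to the 12.0 and 12.9 CPM after 3-MB-PP1 alone. SNHG1 (-1.28) and SNHG3 (-1.29) fell as well. Since SNORD or SNORA genes overlap SNHG1 and SNHG12, and RCC1 overlaps SNHG3, their counts may hold other RNAs.

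**Figure D4:**
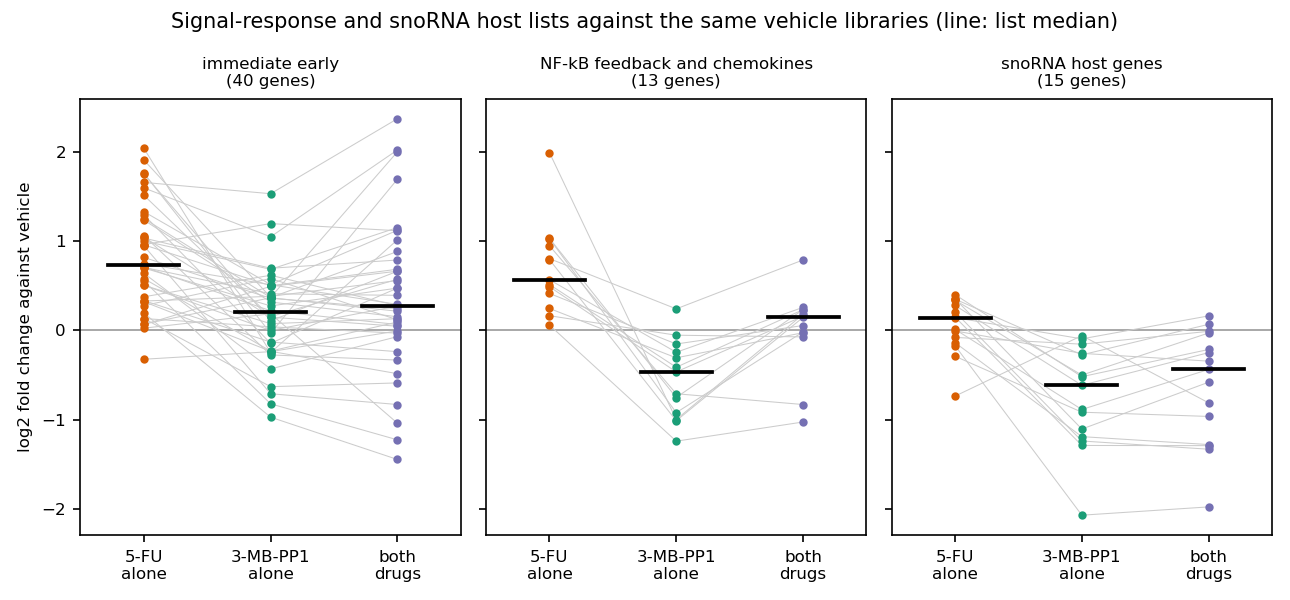
Log2 fold change against the same vehicle libraries for the immediate early, NF-kB and small nucleolar RNA host lists; grey lines join a gene and black bars are medians. The NF-kB median is 0.57 after 5-FU alone, -0.47 after 3-MB-PP1 alone and 0.15 after both drugs.

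Most chaperones tested fell, and HSPA8 fell most. HSPA8, the constitutive HSC70 that folds new proteins, was at 3665 and 3796 CPM in vehicle, 2778 and 2972 CPM after 5-FU alone, 2952 and 2834 CPM after 3-MB-PP1 alone and 945.5 and 951 CPM after both. The net change was -1.98 (SE 0.04, adjusted p = 4.7e-21). Both libraries of both drugs lay below all 6 others, by -1.60 against 5-FU alone and -1.61 against 3-MB-PP1 alone, and the interaction was -1.23 (adjusted p = 7.7e-13). Its window shown above is one of 6 among 15 matched chaperone promoters to hold GAANNTTC (40.0%, against 4.71% of all tested and 6.87% of all promoters). The inducible HSPA1A (-1.44) and HSPA1B (-1.47), near-identical copies that share reads, and DNAJA1 (-0.49) also fell, so that 9 of 16 fell. HSP90AA1 (0.20), HSP90AB1 (0.14) and the regulator HSF1 (0.25) rose by small amounts. HSP90AA1 was not called in DESeq2, without either vehicle library or without replicate 1 of both drugs. HSF1 was not called without vehicle replicate 1.

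Stress-response factors of the endoplasmic reticulum and amino acid pathways were lower, 13 of 22 falling and 4 rising. ATF4, the factor translated under amino acid and reticulum stress, went from 287 and 303 CPM to 103 and 110.4 CPM (-1.47, SE 0.06) and lay below each drug alone, and XBP1, a factor of the unfolded protein response, went from 55.0 and 55.5 CPM to 22.5 and 23.3 CPM (-1.27, SE 0.08). The 4 that rose were SESN2 (1.71), DDIT4 (1.07), PPP1R15A (0.94) and SLC7A5 (0.14), the last not called without vehicle replicate 1 or without replicate 1 of both drugs. Sterol and fatty acid synthesis fell in 29 of 32 genes (median -0.79). INSIG1, which holds the sterol sensor SCAP in the reticulum, went from 72.7 and 71.0 CPM to 8.70 and 7.26 CPM (-3.17), followed by IDI1 (-1.81), SQLE (-1.68) and HMGCS1 (-1.48). TM7SF2 (0.79) and PMVK (0.43) rose, PMVK not in DESeq2, without either vehicle library or without replicate 2 of both drugs.

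Survival and death genes of the BCL2 family moved by moderate amounts. BAK1, a pore-forming effector, rose from 26.1 and 29.6 CPM to 51.8 and 49.9 CPM (0.87, SE 0.09), as did the inhibitors of apoptosis BCL2L1 (0.51), CFLAR (0.51), BIRC2 (0.34), BCL2L2 (0.22) and MCL1 (0.22). BCL2 (-1.03), BOK (-0.46) and XIAP (-0.18) fell, XIAP not in DESeq2 nor without any 1 of the 4 libraries. MCL1 was at 251 and 271 CPM in vehicle and 302 and 305 CPM after both drugs, with no overlap. In all, 6 of 12 rose and 3 fell. Of 9 EGF receptor family ligands and receptors, 4 rose, 3 fell and 2 were not called, beside 23.9% rising and 26.2% falling over all genes. The ligands HBEGF (1.48), TGFA (1.44) and AREG (0.33) rose and the ligand EREG (-0.19) fell, and of the receptors ERBB2 (0.29) rose and ERBB3 (-0.60) and EGFR (-0.22) fell. The calls of EREG and EGFR ended without replicate 1 of both drugs, and that of EGFR also without vehicle replicate 1 and in DESeq2.

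Of 13 tested WNT target and crypt stem cell genes, 7 fell, 2 rose and 4 were not called. AXIN2, a feedback inhibitor of WNT signalling, went from 24.1 and 21.2 CPM to 8.63 and 7.72 CPM (-1.47), and the secreted inhibitor DKK1 from 364 and 393 CPM to 197 and 195 CPM (-0.95). The adhesion receptor CD44 rose (0.38), and so did LGR5, a receptor of crypt stem cells, which had 1 count over both vehicle libraries and 54 over both libraries of both drugs, a count ratio of 54.8 (exact 95% interval 9.43 to 2204, counting error alone). Of 26 listed epidermal differentiation genes, foreign to colon cells, 12 were high enough to test, and of these 7 rose, 1 fell and 4 were not called. The largest rises were in the transcription factor GRHL3 (3.02), the cornified envelope proteins FLG (2.94) and HRNR (2.68), and SBSN (2.30), and the gene that fell was GRHL1 (-0.97), of the same factor family as GRHL3. FLG stayed low in level, at 0.467 and 0.305 CPM in vehicle and 3.24 and 2.78 CPM after both drugs. Of 9 tested markers of intestinal epithelium 4 rose, 1 fell and 4 were not called (median 0.09). The keratins KRT8 (0.72), KRT18 (0.59) and KRT19 (0.67) rose, as did CLDN4 (0.27), and EPCAM fell (-0.14), the calls of CLDN4 and EPCAM ending in DESeq2 and without any 1 of the 4 libraries. The KRT8 and KRT18 genes overlap on opposite strands.

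Ribosome-related lists had medians near 0. Of 55 cytoplasmic ribosomal proteins, 27 rose and 4 fell, with a median of 0.11. RPS19 rose (0.44), while RPL10A (-0.78) and RPL13A (-0.52) fell, the last overlapping several SNORD genes. Of 29 genes of ribosome biogenesis, 14 fell and 5 rose (median -0.10), among them TAF1D (-0.96), GNL3 (-0.79), POLR1C (-0.75) and the Pol I factor UBTF (-0.62). RRP12 (0.46) and FBL (0.42) rose. Of 20 hypoxia and glycolysis genes 9 rose and 4 fell, where 23.9% of all genes rose and 26.2% fell. NDRG1 (1.13) and PKM2, pyruvate kinase (0.46), rose and the angiogenic factor VEGFA fell (-0.99). Of 17 interferon response genes 2 rose, ISG15 (0.53) and STAT2 (0.39), and 6 fell, OAS3 most (-1.20).

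The 10 largest rises among genes with at least 5 CPM in the higher group included many with few vehicle counts. TG, which encodes the thyroid hormone precursor thyroglobulin, was at 0.0779 and 0.305 CPM in vehicle, 0.263 and 0.36 CPM after 5-FU alone, 12.6 and 13.6 CPM after 3-MB-PP1 alone and 18.9 and 17.9 CPM after both (6.53, SE 0.28). SLA overlaps TG on the opposite strand. MGAM, a brush border maltase (5.33), VWA3A (4.79) and the muscle protein NEB (3.79) had likewise low counts in vehicle and after 5-FU alone, and the libraries of both drugs lay close to those of 3-MB-PP1 alone. For MGAM these were 14.2 and 14.1 CPM against 15.5 and 13.2 CPM. The non-coding RNA PICART1 (3.68), IFNE, an epithelial interferon (3.45), BTBD19 (2.94), ADAMTSL4 (2.87), the NMDA receptor subunit GRIN2C (2.74) and NUP50-DT (2.71) completed the 10. COL21A1, a collagen, had no count in either vehicle library. Setting those libraries at 3 counts each gives a floor, and the mean after both drugs, 1.84 CPM, lay 7.91-fold above it. Counting error after both drugs is not part of this value, and this gene was picked after its value was seen.

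Some genes lay beyond both single treatments. Both libraries of both drugs stood above all 6 others in 1594 genes called higher against vehicle (10.1% of those tested) and below them in 1581 called lower (10.1%). These counts rest on library order and the call against vehicle, and needed no call against either single treatment. Among those with the largest smaller difference from the 2 single treatments, all called in the 3 comparisons, were HS3ST4, MAP1LC3B2, ORAI3 and PICART1 upward and HSPA8, PIM1, CECR2, NRARP and FAM164A downward. ORAI3, a calcium channel subunit, was at 2.65 and 2.74 CPM in vehicle, 6.25 and 5.76 CPM after 5-FU alone, 5.09 and 6.68 CPM after 3-MB-PP1 alone and 12.7 and 10.5 CPM after both. PIM1, a survival kinase, was at 11.5 and 14.2 CPM in vehicle, 8.09 and 7.08 CPM and 8.32 and 8.09 CPM after each drug alone, and 2.85 and 3.55 CPM after both (-1.998, SE 0.18). NRARP, a feedback inhibitor of Notch signalling, showed the same order, with 9.58 and 10.1 CPM in vehicle and 2.53 and 2.16 CPM after both (-2.06, SE 0.19).

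The 2 libraries of 3-MB-PP1 alone differed in more genes than those of any other group. Among genes over 20 CPM on average, 41 were higher in its replicate 2 by over 0.5 log2 and 2 in its replicate 1, against 10 and 4 in the group of both drugs and 6 and 7 in vehicle and 1 and 2 after 5-FU alone. HS3ST4, at 3.59 and 8.56 CPM, RPS16, at 216 and 349 CPM, and TYMS differed between these 2 libraries. Replicates 1 and 2 of 3-MB-PP1 alone held 50501212 and 10580105 gene counts. The part of this depth, or of the gap between these 2 libraries, in the differences from 3-MB-PP1 alone was not tested.

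Other genes stood near vehicle after both drugs although 5-FU alone had raised them. The 5 with the largest change after 5-FU alone whose net 95% interval lay within 0.5 log2 of 0 were ZNF469, FOXD1, ADM, ID3 and LIF, and this choice fixes the pattern. In all, 6432 genes (40.9%) had a net interval that narrow. LIF, a cytokine of the IL-6 family and a p53 target, was at 27.6 and 28.7 CPM in vehicle, 61.3 and 59.6 CPM after 5-FU alone, 28.7 and 28.7 CPM after 3-MB-PP1 alone and 26.5 and 29.6 CPM after both, so that the groups overlapped (-0.01, 95% interval -0.18 to 0.17). ADM, the vasodilator adrenomedullin, went from 18.8 and 21.6 CPM to 52.5 and 48.9 CPM after 5-FU alone, and measured 12.8 and 10.4 CPM after 3-MB-PP1 alone and 19.6 and 21.0 CPM after both. ID3, an inhibitor of bHLH factors (0.15, 95% interval -0.05 to 0.36), and the forkhead factor FOXD1 (0.10, -0.12 to 0.32) overlapped vehicle as well, while both were called higher without vehicle replicate 2.

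**Figure D5:**
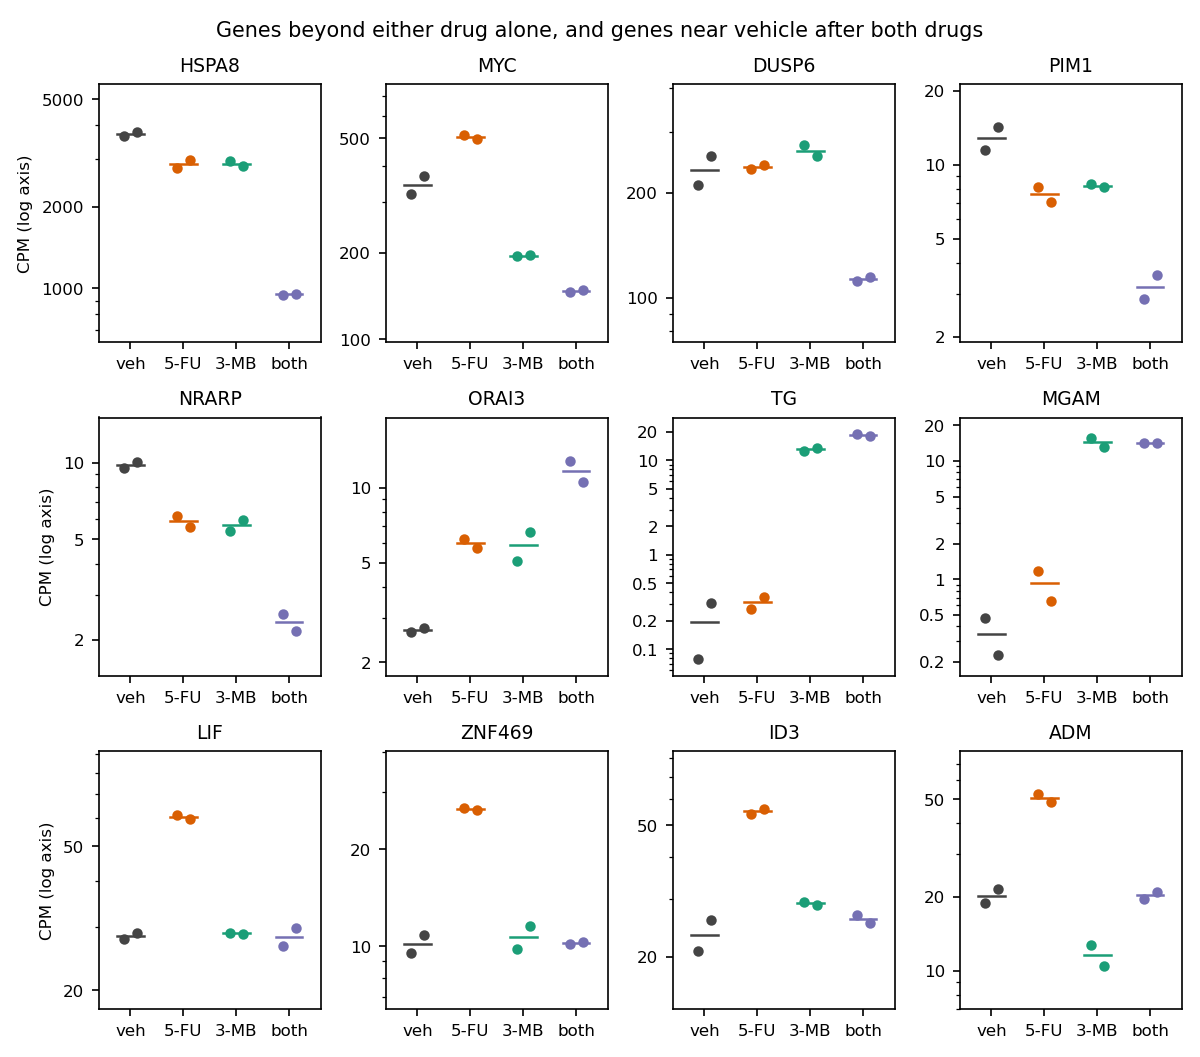
CPM on a log axis in every library for 12 genes; points are the 2 libraries of a group and lines their mean. HSPA8, MYC, DUSP6, PIM1 and NRARP lie lowest and ORAI3 highest after both drugs, TG and MGAM are high wherever 3-MB-PP1 was given, and LIF, ZNF469, ID3 and ADM after both drugs lie within or near the vehicle range.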

How the data were processed

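The 8 deposited tables list RefSeq transcripts and ERCC spike-ins with raw read counts, which the authors made from reads aligned with TopHat2 2.0.13 to hg19, per the submitters' processing notes. No label or header names the counting program, strand setting or annotation release, so overlapping genes have uncertain counts. The authors' deposited RPKM values were not tested. Each symbol was represented by 1 transcript, that of highest mean count over the 8 tables, and library totals leave out the 92 spike-ins. Counts were fitted with edgeR 4.0.16 (R 4.3.3) in a model of the 4 groups with TMM scaling, filterByExpr and the quasi-likelihood F test, with Benjamini-Hochberg adjustment over 15723 genes, and called at an adjusted p of 0.05. The fit was tested on simulated data. CPM used TMM-adjusted totals, and the residual degrees of freedom were 4. DESeq2 1.42.0, limma 3.58.1 (voom), other scalings, filters, transcripts and left-out libraries were alternatives.

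Named were a fixed set of genes, the 10 largest rises and falls, the 4 largest changes of each list with members against its majority, the 5 largest rises and falls beyond both single drugs, and 5 genes near vehicle that 5-FU alone had changed. The 10 largest rises and falls needed 5 CPM in the higher group. BIRC2, BCL2L2, AREG, ERBB2, NFKBIA, DUT, CXCL1, ICAM1 and IL8 were named to complete a list's count or beside a listed gene, after their values were seen. The gene lists and members were chosen with earlier results of these data known. Some items chosen by these rules are not reported here.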

Additional observations from a re-analysis of the deposited data

Results flagged for a closer look

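For 8 of 22 genes examined in every library, a set chosen by name, the interaction was called (n = 2 libraries a group). For these the effect of 3-MB-PP1 differed between cells first kept in 5-FU and cells first kept in DMSO. Calls used the interaction term of the edgeR quasi-likelihood test with Benjamini-Hochberg adjustment over all genes. Of all genes tested, 4.1% were called for interaction, 2.0% below 0 and 2.11% above. The log2 interaction was below 0 for CDKN1A (-0.67, adjusted p = 5.4e-07), MDM2 (-0.93, adjusted p = 1.6e-09), GDF15 (-0.46, adjusted p = 0.013), PMAIP1 (-0.45, adjusted p = 0.015), TNFRSF10B (-0.27, adjusted p = 0.029), MYC (-0.96, adjusted p = 2.4e-08) and JUN (-1.20, adjusted p = 3.7e-05). It was above 0 for RRM2 (0.57, adjusted p = 2.9e-05). The interactions of CDKN1A, MDM2, MYC, JUN and RRM2 were called in 15 of 16 alternatives, all but spike-in scaling, where the highest adjusted p of these genes was 0.996. GDF15 was called in 11, and PMAIP1 and TNFRSF10B in 10, each losing its call without vehicle replicate 1 or without vehicle replicate 2 among others. TNFRSF10B is overlapped on the opposite strand by RHOBTB2. All 8 interactions share the same vehicle libraries.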

How the results depend on the processing

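Scaling to the ERCC spike-ins changed the counts of calls most: 427 genes against vehicle (204 higher, 223 lower, 427 over 2-fold), 53 against 5-FU alone (41 higher, 12 lower), 140 against 3-MB-PP1 alone (20 higher, 120 lower), and 0 interactions, 0 higher and 0 lower. Of the members of the 29 lists, 24 were then called higher and 96 lower, against 180 and 314; the cause was not tested. DESeq2 called 3383 genes against 5-FU alone (1568 higher) and 379 interactions (185 higher, 194 lower). With no filter 479 interactions were lower. Against vehicle, every alternative other than spike-in scaling stayed within 1.5 times of 7884 calls, with 6294 in DESeq2 and 6550 to 8063 when 1 library was left out. Leaving out 1 library gave 3341 to 5372 calls against 5-FU alone, of them 1452 to 2564 higher, both lowest without replicate 2 of both drugs, and 248 to 919 interactions, lowest without vehicle replicate 1. Of these, 87 to 551 were higher and 143 to 368 lower. No called value changed sign in an alternative. Of the named genes' values, 3269 kept direction and call, 208 lost a call, 4 gained one, and 19, of genes called neither way, changed sign. Spike-in scaling made up 127 of the 208 lost calls.

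Whether replicate numbers pair the samples is not in the labels. Same-numbered deviations correlated at 0.0233 between vehicle and both drugs, and at -0.0602 to 0.0444 over all pairs of groups. This correlation weighs all genes alike, those with few counts included, so pairing cannot be decided from it. A replicate block gave 7926 calls. Depth was 12606929 to 13444356 gene counts in the 4 libraries, so genes under a few counts were not tested, and 2 libraries a group limit the precision of every estimate.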

Other observations

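Small nucleolar RNAs, which guide chemical modification of ribosomal RNA and mostly come from introns of host genes, were more often lower than higher. Of 145 tested by RefSeq type, 25 rose and 47 fell after both drugs, with a median log2 change of -0.17, beside 21 and 5 (median 0.06) after 5-FU alone and 4 and 60 (median -0.59) after 3-MB-PP1 alone, all against the same vehicle libraries. Long non-coding RNAs showed the reverse balance, with 170 of 890 higher and 77 lower (median 0.09). Protein-coding genes had an almost even one, with 3322 of 13466 higher and 3816 lower (median -0.01). Of all genes tested, 23.9% were called higher and 26.2% lower after both drugs, so long non-coding RNAs were called less often in both directions. After 5-FU alone these shares were 21.2% and 22.7%, and after 3-MB-PP1 alone 11.5% and 16.9%. The part of small nucleolar RNAs in the host gene counts was not tested.

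Markers foreign to colon cells stayed low in sum. The 20 listed markers of other cell types, 8 of them tested, summed to 97.8 and 101 CPM in vehicle and 97.7 and 97.4 CPM after both drugs. The 12 listed markers of intestinal epithelium summed to 2759 and 2889 CPM and to 4331 and 4281 CPM. Of the 9 tested among these, 4 rose and 1 fell. ALB, the gene of liver albumin, had 2 counts over both vehicle libraries and 64 over both libraries of both drugs, a count ratio of 32.5 (exact 95% interval 8.63 to 273.9, counting error alone). Its level was 2.45 and 2.55 CPM after both drugs, 2.55 and 3.20 CPM after 3-MB-PP1 alone and 0 after 5-FU alone. The endothelial receptor KDR rose (1.44). Of the other endothelial markers, PECAM1 was not called (-0.40), VWF was too low to test, and CDH5 had no count in any library. COL1A1 (0.30) and TUBB3 (-0.17) were called, but neither call held in DESeq2.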
